A study of Mus musculus with 2 samples.

Results

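Bpifa2 and Bpifb1, both encoding secreted BPI-fold proteins, were followed as 2 of the 48825 features counted in each library, and were chosen by name and with their behaviour in these data already known. Parotid glands (PG) came from wild-type C3H female mice of about 1 year of age. The irradiated (IR) library was made 10 months after 6 Gy per day for 5 days to the head and neck, 30 Gy in all, and the control library from glands that were not irradiated. Each library pooled 2 mice, so each condition had 1 library and no replicate, and no test between conditions was possible. All intervals below are 95% intervals and cover counting error only, not the spread between mice.

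BPI-fold proteins share a lipid-binding fold with the bactericidal/permeability-increasing protein of neutrophils. Bpifa2, also called parotid secretory protein, is a main protein of mouse parotid saliva that serous acinar cells make and store in granules. Bpifb1 is a larger member of the family known from the secretions of the airways and of mucosal glands. Both genes lie on the plus strand of chromosome 2 in GRCm38. Bpifa2 (ENSMUSG00000042459.8) spans 154008265 to 154016079 and Bpifb1 (ENSMUSG00000027485.15) spans 154190818 to 154220369, with 175 kb between them. The 13 Bpif genes of this chromosome occupy 446 kb, and Bpifb5 begins 3.37 kb past the end of Bpifb1.

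The start regions are shown because these 2 members of a family differed in level by several orders of magnitude, and because Bpifb1 has more than 1 annotated start. They are RefSeq promoters of build GRCm38.p6, plus strand, 300 bases from 250 before to 50 after the start. Capitals mark TATAA, the core of a TATA box, and AGGAAG, a core bound by ETS factors such as Etv1. The first is Bpifa2 at chr2:154008026-154008325, and the others are the upstream and the downstream start of Bpifb1, at chr2:154190568-154190867 and chr2:154200130-154200429.
Bpifa2: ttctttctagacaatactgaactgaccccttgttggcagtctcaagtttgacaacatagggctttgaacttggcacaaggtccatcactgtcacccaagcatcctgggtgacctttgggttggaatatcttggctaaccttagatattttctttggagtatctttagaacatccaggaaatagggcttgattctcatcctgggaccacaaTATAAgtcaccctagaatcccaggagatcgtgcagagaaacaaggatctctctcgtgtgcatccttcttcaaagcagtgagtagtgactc
Bpifb1, upstream start: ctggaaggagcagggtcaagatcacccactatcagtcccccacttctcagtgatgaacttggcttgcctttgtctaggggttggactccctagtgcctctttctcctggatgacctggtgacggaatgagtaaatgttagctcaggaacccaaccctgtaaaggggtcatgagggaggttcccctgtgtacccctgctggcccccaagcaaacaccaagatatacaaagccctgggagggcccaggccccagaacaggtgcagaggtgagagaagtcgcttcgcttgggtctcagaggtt
Bpifb1, downstream start: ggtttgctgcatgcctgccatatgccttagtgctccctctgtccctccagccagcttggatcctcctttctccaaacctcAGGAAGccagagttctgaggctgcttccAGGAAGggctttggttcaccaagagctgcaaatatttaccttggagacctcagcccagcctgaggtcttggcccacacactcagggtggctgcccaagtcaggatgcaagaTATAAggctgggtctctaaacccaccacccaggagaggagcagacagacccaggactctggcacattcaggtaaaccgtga
These motifs and CAGCTG, a form of the E-box, were searched on both strands and did not overlap. TATAA stood 40 bases before the RefSeq start of Bpifa2, which is 29 bases before its GENCODE start, and 31 bases before the downstream start of Bpifb1. It was not in the upstream window of Bpifb1. TATAA was in 24.9% of the 32851 promoters of the table, AGGAAG in 35.4% and CAGCTG in 16.3%. AGGAAG occurred 2 times before the downstream start of Bpifb1, and CAGCTG in none of these 3 windows. The counts were made from the 3′ ends of transcripts and do not tell which start was used.

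The control library held 5550 barcodes and 22707876 UMIs (tags that mark single RNA molecules), and the IR library 7793 barcodes and 23890757 UMIs. At least 200 genes and at most 5% mitochondrial UMIs left 3378 control and 5286 IR cells, with medians of 2907.5 and 2461.5 UMIs. Of the cell barcodes, 12 occurred in both libraries, 3 of them among the cells kept. Cells were clustered without the BPI-fold genes and named from markers, which gave 845 control and 846 IR epithelial cells, 2305 and 4123 immune cells and 103 and 62 endothelial and stromal cells. A further 125 control and 255 IR cells stayed unnamed. A level is a gene's UMIs per 1000000 UMIs of the class in that library (CPM), or a percent of all UMIs. Cells dissociated from tissue are unequally recovered, so levels in a class say nothing of how much of a protein the gland made.

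Among the other 15 BPI-fold genes measured, 7 had a UMI in the cells kept and 8 had none (Bpifa1, Bpifa3, Bpifa5, Bpifb3, Bpifb6, Bpifb9a, Bpifb9b and Bpi). A count of 0 allows a UMI in up to 0.0888% of control and 0.0568% of IR cells, and sets no limit on cells that express the gene without giving a UMI. Bpifa2 had 4369378 UMIs in control and 3745612 in IR cells. Bpifb1 had 486 and 1102. Bpifb5, the neighbour of Bpifb1, had 99 and 191, and 268 of these 290 UMIs lay in epithelial cells. Bpifb4 had 271 and 315 and Bpifa6 had 30 and 22. Bpifb2 had 49 and 4, of which 45 lay in macrophages. Bpifc had 1 control UMI. The lipid-transfer relatives, Lbp (lipopolysaccharide-binding protein) with 246 and 148 UMIs and Pltp (phospholipid transfer protein) with 297 and 257, were led by Etv1+ cells and by endothelial cells. Near-identical stretches of related genes can share reads, so low counts of single family members are uncertain.

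**Figure D1:**
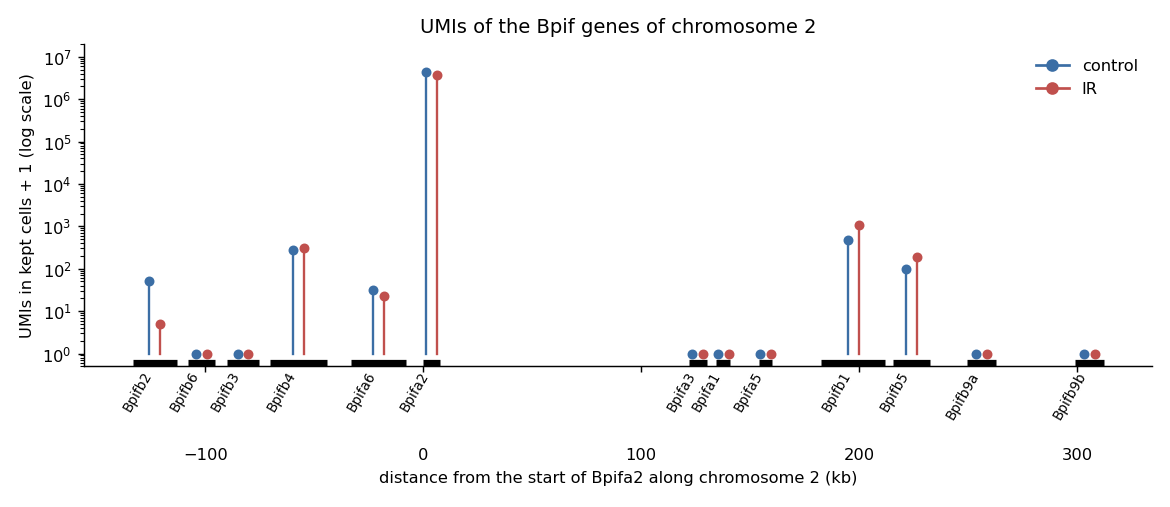
UMIs of the 13 Bpif genes of chromosome 2 in the kept cells of each library (log scale, 1 added to each count), placed by their distance in kb from the start of Bpifa2, with gene bodies as black bars. Bpifa2 stands at 4369378 control and 3745612 IR UMIs, the next highest is Bpifb1 at 486 and 1102, and 7 of the 13 genes have no UMI.

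Bpifa2 was the most abundant transcript of the acinar class in both libraries. The same held in Etv1+, striated duct, B- and T-cells, so this rank alone does not mark a class as a source. Bpifa2 made up 44.2% of all UMIs in the 390 control acinar cells and 48.3% in the 384 IR acinar cells. The median acinar cell had 2473 Bpifa2 UMIs in the control library, with quartiles of 1019.25 and 4668 and extremes of 81 and 33278. In the IR library the median was 2488.5, with quartiles of 1123.5 and 4504 and extremes of 113 and 21206. The distributions overlapped almost fully, and no acinar cell of either library lacked the gene. Its share of a cell's UMIs had a median of 44.5% (quartiles 37.8% and 49.4%) in control and 47.2% (37.1% and 53.2%) in IR cells.

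The ratio of IR to control CPM for Bpifa2 in acinar cells was 1.09 (interval 1.09 to 1.10) over all genes, but 0.92 when the abundant secretory, mitochondrial and haemoglobin genes were left out of the total, so its direction depended on the scaling. Because Bpifa2 and its companions took 86.6% of control and 84.1% of IR acinar UMIs together with the other abundant genes, the median of all 1158 acinar genes with at least 100 UMIs stood at a ratio of 1.20 under the first scaling and at 1.01 under the second. Relative to that median gene, Bpifa2 was at 0.913. Bpifa2 was under the 2-fold size rule, which 3.63% of the acinar genes passed upwards and 0.432% downwards.

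Of the 18 secretory genes listed beside Bpifa2, 17 could be measured in acinar cells, with a median ratio of 0.973 against the 1.20 of all genes. Odam, the odontogenic ameloblast-associated protein, was the single gene of the list past 2-fold, at 3.08 (2.82 to 3.37), and none fell below 0.5. Smr3a, a small secreted salivary protein, came nearest to that limit at 0.524 (0.521 to 0.527). Amy1 (salivary amylase) was at 0.874 and Pip (prolactin-induced protein) at 1.06. Car6, the secreted carbonic anhydrase, was at 0.636. Of the 19 duct and mucosal defence genes, 4 could be measured in acinar cells, with a median ratio of 0.927. Lpo (lactoperoxidase) was at 0.855 and Pglyrp1, a peptidoglycan-binding protein, at 1.40. Klk1, a kallikrein of striated ducts, was at 0.377 (0.251 to 0.556) from 36 IR and 105 control UMIs, and was the 1 gene of this list past 2-fold. Its acinar levels of 34.8 CPM in control and 13.1 CPM in IR lay under those of B-cells, at 129 and 38.9 CPM. The Klk1 ratio was therefore not read as a change in acinar cells.

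Etv1+ cells, a secretory class defined by the ETS factor Etv1, had the second highest Bpifa2 level in both libraries. Bpifa2 took 35.6% of UMIs in 261 control and 37.4% in 260 IR cells. The median Etv1+ cell had 8778 Bpifa2 UMIs in the control library (extremes 72 and 40036) and 1967 in the IR library (42 and 32579). These medians moved with depth, which was 24275 UMIs per cell in control and 5669.5 in IR Etv1+ cells. The CPM ratio of IR to control was 1.05 (1.05 to 1.05) over all genes and 0.887 without the abundant genes, again with opposite signs. Within a library, the acinar level exceeded the Etv1+ level 1.24 times in control (1.24 to 1.24) and 1.29 times in IR (1.29 to 1.3).

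The Etv1+ class joined deep and shallow groups of cells. In the deep groups, with medians of 39878 control and 21877 IR UMIs, Bpifa2 took 35.6% and 37.5% of UMIs. In the shallow groups, with medians of 1101.5 and 1119 UMIs, it took 36.5% and 34.7%, and the median shares per cell were 21.7% and 23.1%. Acinar cells were also split by depth into 3 groups of equal size. Bpifa2 took 40.2% of UMIs in control and 38.9% in IR in the shallowest group, and 46.4% and 47.95% in the middle group. In the deepest group it took 43.9% in control and 49.8% in IR.

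Bpifa2 was detected in every kept cell of every class, so its presence in a cell does not mark the cell as a source. Across the 8 immune, cycling, endothelial and stromal classes the median was 71 to 80.5 Bpifa2 UMIs per cell in the control library and 61 to 78 in the IR library. Median depth varied 7.34-fold between these classes in control and 3.51-fold in IR, while the median Bpifa2 count varied 1.13-fold and 1.28-fold. The CPM of Bpifa2 varied 3.09-fold and 3.69-fold between the same classes, from stromal cells (1.43% of UMIs in control, 1.34% in IR) to macrophages (4.43% and 4.95%). Cycling cells, the shallowest class in control by their median, had 1.63%. A CPM rests on the summed UMIs of a class, which a median depth does not give. The relation of CPM to depth was therefore not read from these medians. Within the control B-cells the count rose with depth, but by less than depth did. Split by depth into 3 groups, the shallowest (median 2037 UMIs) had a median of 69 Bpifa2 UMIs and the deepest (median 3357) had 82. RNA free in the suspension gives UMIs in droplets of every kind, so these values were not read as expression by the cells. The part of free RNA in them was not tested.

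**Figure D2:**
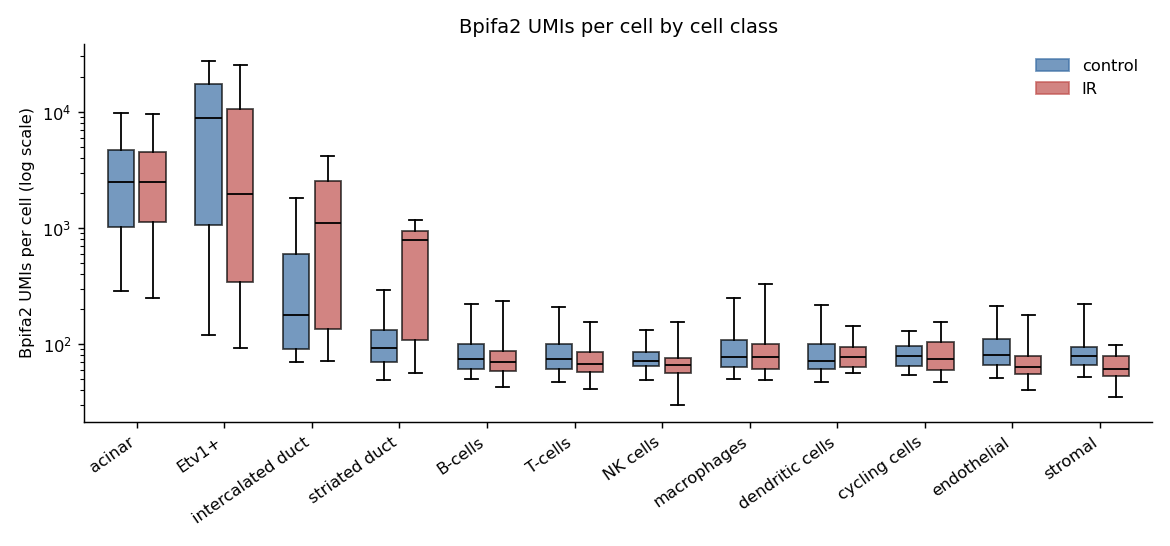
Bpifa2 UMIs per cell (log scale) by class in the control (blue) and IR (red) library. Boxes span the quartiles with the median as a line, and whiskers reach the 5th and 95th percentiles. All 8 classes from B-cells to stromal cells have medians between 61 and 80.5 UMIs, whereas acinar medians are 2473 and 2488.5, and the IR striated duct box reaches far above the control box.

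Barcodes with under 200 genes, which the cell filter leaves out, also held both genes. The 912 such control barcodes held a median of 101.5 Bpifa2 UMIs (quartiles 68 and 159) and the 649 IR barcodes 90 (66 and 135). Haemoglobin took 62.2% and 48.4% of their UMIs, and some barcodes reached 2084 Bpifa2 UMIs in control and 2837 in IR. For every 1000 Bpifa2 UMIs they held 447 Dcpp1 UMIs in control and 268 in IR, against 96.5 and 56.5 in immune cells, so their RNA was made up differently from that in immune cells. All of them held Bpifa2. Bpifa2 made up 7.90% of their UMIs in control and 9.79% in IR, a ratio of 1.24 (1.23 to 1.25). These totals include haemoglobin, whose share was lower in IR. The median Bpifa2 count per barcode was also lower in IR. No ratio without haemoglobin was computed, so the direction of the 1.24 was not read. In immune cells as a whole the Bpifa2 ratio was 1.01 (1.01 to 1.02). In endothelial cells it was 0.584 (0.562 to 0.608), and 0.877 with no mitochondrial limit. A first group of these cells went from 59953 to 24585 CPM (41 control and 20 IR cells, with medians of 88 and 64 UMIs), and the other from 14492 to 14922 CPM.

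In ducts the Bpifa2 level lay between those of acinar and immune cells. Intercalated duct cells, the small proximal ducts marked here by the Dcpp genes, had 20.7% of UMIs on Bpifa2 in 103 control and 31.0% in 126 IR cells. The median was 178 UMIs per cell in control (quartiles 91 and 598) and 1113 in IR (134 and 2551). The lowest cells of the class, with 59 control and 56 IR UMIs, lay under the B-cell medians of 74 and 70, and the highest had 8827 and 5585. The CPM ratio was 1.5 (1.48 to 1.51), and 1.67 without the abundant genes. It depended on which cells were put in the class. It was 1.10 with no mitochondrial limit, 1.12 without integration and 1.13 with the BPI-fold genes in the clustering. The class then held 219823, 214211 and 314242 control Bpifa2 UMIs, against 67126 in the main setting. The libraries differed in the cells behind these sums. A deep group of a second-level clustering, made without integration of the libraries, held 8 control and 66 IR cells. In this group Bpifa2 took 34.1% of the control and 34.0% of the IR UMIs. In the remaining intercalated duct cells the shares ran from 13.8% to 18.5%.

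Striated duct cells, the ion-transporting ducts that carry Klk1, Fxyd2 and Crisp3, had 14.7% of UMIs on Bpifa2 in 91 control cells and 35.4% in 76 IR cells. The median was 93 UMIs per cell in control (quartiles 70 and 132.5) and 784 in IR (108.5 and 935.75). The CPM ratio was 2.41 (2.37 to 2.46), and 4.38 without the abundant genes. In this class 5.24% of the 210 genes with at least 100 UMIs were past 2-fold upwards and 41.4% downwards, and their median ratio was 0.595.

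That shift came with a change in which cells made up the cluster. A second-level clustering of the striated duct cells, made without integration of the libraries, set apart a group of 53 IR and 2 control cells. Whether the lack of integration had a part in this split was not tested. The group was lowest in Klk1, Fxyd2 and Crisp3, and is called the Klk1-low group here. Together these 3 genes took a median of 0.625% of UMIs in its IR cells, and 4.17% and 3.72% in the 89 control and 23 IR cells of the other groups (Klk1-high groups). The 2 control cells of the Klk1-low group had 1.83% and 4.25%, so its name describes its IR cells. Both names refer to shares of UMIs. The make-up of the Klk1-low group moved with the cell filter. It held 10 control and 64 IR cells with a mitochondrial limit of 10%, and 22 and 60 with no such limit. A Klk1 UMI was in all 53 Klk1-low IR cells, and in 81 of the 89 control and 18 of the 23 IR Klk1-high cells. In the Klk1-low IR cells Bpifa2 took 39.1% of UMIs, with a median of 908 per cell and quartiles of 765 and 1013. In the Klk1-high groups the medians were 93 UMIs in control and 73 in IR. The IR value lay within the 61 to 78 UMIs of the non-epithelial classes, and the control value above their 71 to 80.5. Their CPM ratio of IR to control was 0.884 (0.847 to 0.923), the reverse of the ratio for the whole class.

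Of the 8 genes listed as striated duct markers, Klk1, Fxyd2 and Crisp3 were above the other IR epithelial cells in the Klk1-low group. They were among its 4 leading genes, with Wfdc2, a whey-acidic antiprotease, first. Slc5a5 and Atp6v1b1 had no UMI there, and 0 and 1 UMI in the Klk1-high groups. Ascl3 had 1 UMI in the Klk1-low IR cells. Cldn7 stood there at 24.8 CPM from 3 UMIs, against 27.0 in IR acinar, 55.6 in IR intercalated duct and 153 in Klk1-high IR cells. Slc12a2 stood at 256 CPM, against 54.1, 157 and 204 in the same cells. It was also among the leading genes of the Etv1+ cluster, which is not in this comparison, so it did not single out striated ducts here. The Klk1-low IR cells also carried Dcpp1 at 76818 CPM, against 6118 CPM in the Klk1-high IR cells and 265747 CPM in IR intercalated duct cells. For Dcpp2 and Dcpp3 the Klk1-low IR cells stood above the IR intercalated duct cells. Dcpp2 was at 5507 CPM against 1550, and Dcpp3 at 2204 against 852, with 153 and 51.0 in the Klk1-high IR cells. Their median depth was 2326 UMIs, against 703 in the Klk1-high IR cells. Their median mitochondrial share was 3.0%, against 0.577% in the latter. Markers of striated and intercalated ducts and acinar transcripts thus lay in the same barcodes, and the part that mixed droplets, depth or mitochondrial RNA had in these values was not tested. By Scrublet, 1 of the 53 ranked in the top 6% of its library for doublet score. That caller marked 32 control cells and 1 IR cell as doublets. Whether it missed doublets in the IR library was not tested, and no cell was removed as a doublet.

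The companions of Bpifa2 also differed in the Klk1-low group. For every 1000 Bpifa2 UMIs the IR acinar cells held 133 Smr3a UMIs, the IR immune cells 148 and the low-gene IR barcodes 133. The Klk1-high IR cells held 152 (136 to 170). The Klk1-low IR cells held 41.1 (39.3 to 43.0). For Amy1 the same values were 129 in acinar, 128 in immune and 85.2 (82.5 to 88.0) in Klk1-low cells. IR intercalated duct cells held 90.9 Smr3a and 70.7 Amy1 UMIs. The cells were clustered on these companion genes, so these differences are descriptions of the group and not a test.

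**Figure D3:**
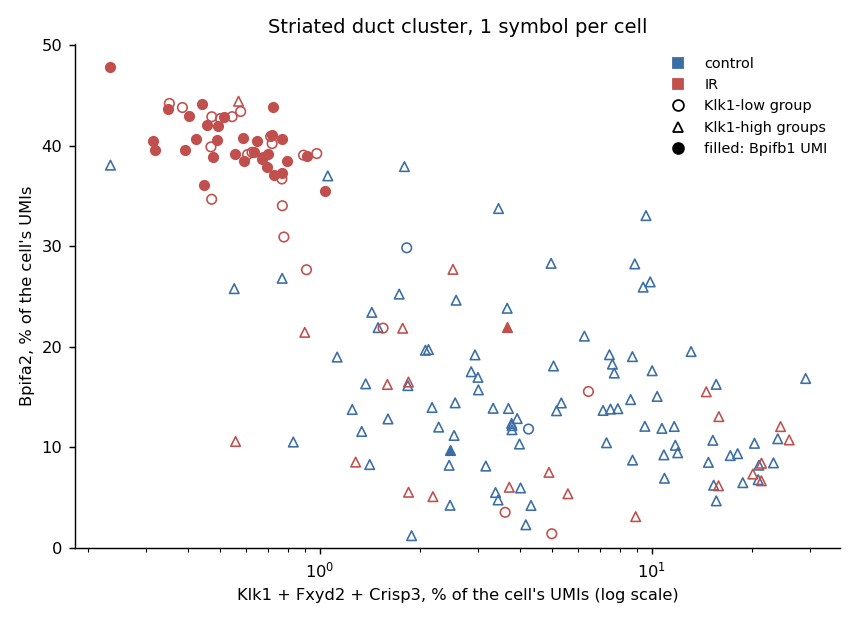
Each symbol is 1 cell of the striated duct cluster, with the percent of its UMIs on Klk1, Fxyd2 and Crisp3 (log scale) against the percent on Bpifa2. Control cells are blue and IR cells red, circles are the Klk1-low group and triangles the Klk1-high groups, and filled symbols have a Bpifb1 UMI. Most of the 53 Klk1-low IR cells gather near 40% Bpifa2, and 31 of them are filled, against 1 filled cell in each library among the triangles.

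Bpifb1 was rare and lay mostly in the secretory cells. Acinar and Etv1+ cells held 93.8% of its control UMIs and 82.2% of its IR UMIs. In acinar cells it had 101 control and 524 IR UMIs, or 33.5 CPM (27.3 to 40.7) and 191 CPM (175 to 208). Its level ranked 552 among acinar genes in control and 156 in IR. The ratio of IR to control was 5.71 (4.61 to 7.14), and 4.8 without the abundant genes. It was the third highest of the 1158 acinar genes with at least 100 UMIs, of which 3.63% were past 2-fold upwards. The gene was chosen with this ratio known, so its rank is a description.

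Single cells carried this difference. A Bpifb1 UMI was found in 37 of 390 control acinar cells (9.49%, interval 6.77% to 12.8%) and in 52 of 384 IR acinar cells (13.5%, 10.3% to 17.4%), and these intervals overlap. At 1000 UMIs per cell the shares were 10 of 373 cells (2.68%) and 19 of 359 (5.29%). The highest control cell had 18 UMIs and the next 13 and 9. The highest IR cell had 194 and the next 52 and 41. Those 3 IR cells held more of the class's Bpifb1 than all its other cells together, and in the control library 5 cells did. The highest IR cell, with 35873 UMIs in all and 15040 of Bpifa2, held 37.0% of them. Without the highest cell of each library the ratio was 4.4, from 330 IR and 83 control UMIs.

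Cells with at least 5 Bpifb1 UMIs numbered 6 of 390 in control and 16 of 384 in IR acinar cells. A fixed count favours deep cells, and their median depths were 17443 and 7820.5 UMIs. The other acinar cells had medians of 5069 and 5198.5. The cells with at least 5 Bpifb1 UMIs held 58.4% and 89.9% of the Bpifb1 UMIs. In the acinar cells with fewer, Bpifb1 stood at 14.4 CPM in control and 20.7 CPM in IR. The count per cell varied 3.68 times more than counting alone gives in control and 29.6 times more in IR. By Scrublet, 0 of these 6 control and 0 of these 16 IR cells ranked in the top 6% of their library for doublet score. The part that doublets had in these 22 cells was not tested. Their Bpifa2 level was close to that of the rest of the class, 42% against 44.2% of UMIs in control and 46.0% against 48.5% in IR. Next to Bpifb1, the gene with the largest excess in them was Bpifb5, with 49 UMIs in these 22 cells and 59 in all the others. Bglap3, an osteocalcin-related gene, came next with 310 and 1570 UMIs.

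In Etv1+ cells Bpifb1 had 355 UMIs in 59 of 261 control cells and 382 UMIs in 53 of 260 IR cells. The levels were 47.1 CPM (42.3 to 52.2) and 80.8 CPM (72.9 to 89.3), and their ratio was 1.72 (1.48 to 1.99), or 1.45 without the abundant genes. This was under the 2-fold rule, which 2.09% of the 3735 Etv1+ genes passed upwards. The share of cells with a UMI was 22.6% (17.7% to 28.2%) in control and 20.4% (15.7% to 25.8%) in IR, at median depths of 24275 and 5669.5 UMIs. Thinned to 1000 UMIs per cell, 5 of 232 control (2.16%) and 15 of 214 IR cells (7.01%) kept a UMI, so the order of the 2 libraries changed with depth. The highest control cells had 50 and 49 UMIs and the highest IR cells 107, 43 and 43. In both libraries 16 cells had at least 5 UMIs, at median depths of 47059 UMIs in control and 45586.5 in IR. The other Etv1+ cells had medians of 20413 and 4742. The cells with at least 5 Bpifb1 UMIs held 77.5% and 84.0% of the class's Bpifb1. Bpifb5 was again the gene most in excess in these cells after Bpifb1, with 105 of the 149 Bpifb5 UMIs of the class in 32 cells. These Etv1+ cells also held more haemoglobin RNA, with 1134 Hbb-bs UMIs against 1573 in all the others. Over all genes, acinar cells stood at 0.712 times the Etv1+ level of Bpifb1 in control (0.565 to 0.891), but at 1.02 times without the abundant genes (0.81 to 1.28), so the control order depended on the scaling. In IR acinar cells were higher under both, at 2.37 (2.07 to 2.71) and 3.38 (2.95 to 3.86).

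Bpifb5 followed Bpifb1 only in part between the libraries. Its ratio of IR to control was 1.60 (1.07 to 2.41) in acinar and 2.89 (2.05 to 4.12) in Etv1+ cells. Of the acinar cells with a Bpifb5 UMI, 11 of 19 in control and 14 of 26 in IR also had a Bpifb1 UMI, and of the Etv1+ cells 13 of 19 and 14 of 23. Of the listed BPI-fold genes other than the pair studied, Bpifb5 was the 1 measurable in acinar cells and the 1 of 3 past 2-fold in Etv1+ cells. Without the abundant genes its acinar ratio was 1.35 with an interval that spans 1 (0.903 to 2.02). The 2 genes are adjacent and related, and reads shared between them cannot be told apart here.

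**Figure D4:**
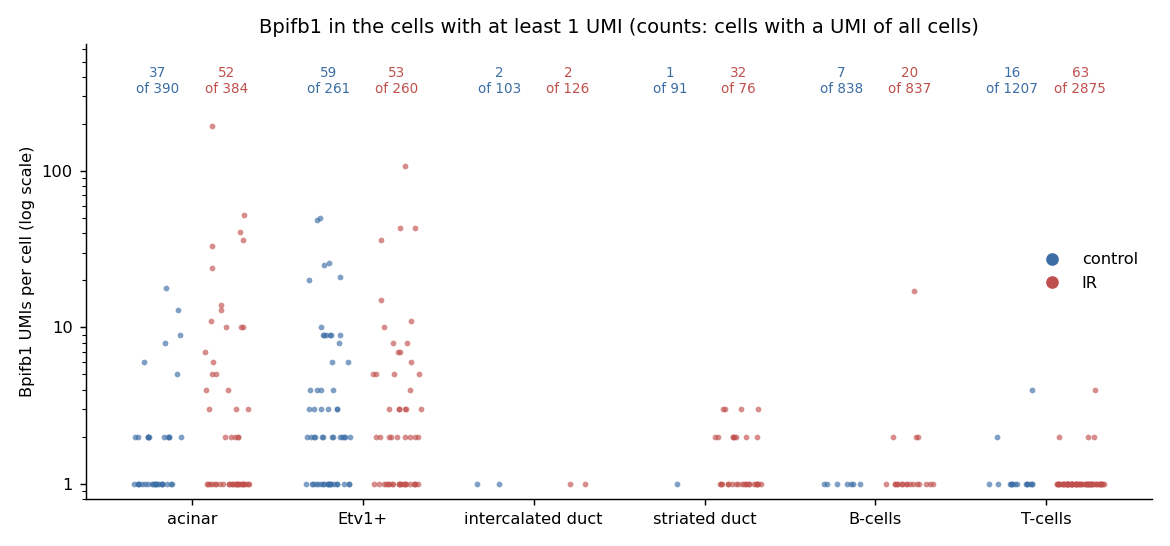
Bpifb1 UMIs per cell (log scale) in the cells with at least 1 UMI, control in blue and IR in red, with the number of such cells over all cells of the class above each column. A few acinar and Etv1+ cells reach 10 to 194 UMIs, whereas the 32 IR striated duct cells with a UMI hold 1 to 3 each.

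In striated duct cells Bpifb1 had 1 UMI in 91 control cells and 48 UMIs in 76 IR cells. The levels were 12.5 CPM (0.316 to 69.5) and 341 CPM (251 to 452). The ratio of 27.3 had an interval of 4.68 to 1102, since the control value rests on 1 UMI. A UMI was found in 1.10% of control cells (0.0278% to 5.97%, median depth 721 UMIs) and in 42.1% of IR cells (30.9% to 54.0%, median depth 2003.5). In B-cells, which should lack the gene, the shares were 0.835% and 2.39%, at median depths of 2538.5 and 2179 UMIs. At 1000 UMIs per cell 18 of 57 IR striated duct cells kept a UMI (31.6%) and none of 20 control cells did, too few for a comparison.

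The Klk1-low group held 47 of these 48 IR UMIs, in 31 of its 53 cells. Of its IR cells, 19 had 1 Bpifb1 UMI, 8 had 2, 4 had 3 and 22 had none. The spread was 0.891 times that of counting alone, against 29.6 times in the IR acinar class, so the UMIs were spread over many cells. The level of 388 CPM (285 to 516) was above the 191 CPM of IR acinar cells over all genes. Without the abundant genes in the total the 2 levels were close, at 1297 and 1201 CPM. In the Klk1-high groups Bpifb1 had 1 UMI in 89 control and 1 UMI in 23 IR cells, a ratio of 4.02 with an interval of 0.0512 to 315. Thus no difference between the libraries was detectable at this depth in the Klk1-high groups. The Klk1-low group had 2 control cells, and its level could not be compared between conditions. Bpifb1 was the third gene in excess in the Klk1-low IR cells over the Klk1-high groups (388 against 20.3 CPM), after Dcpp3 and Dcpp2.

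Bpifb1 was also set against Bpifa2. For every 1000000 Bpifa2 UMIs, the Klk1-low IR cells held 993 Bpifb1 UMIs (730 to 1321). IR acinar cells held 396 (363 to 432), IR Etv1+ cells 216, IR immune cells 345 (289 to 410) and low-gene IR barcodes 318 (208 to 466). The Klk1-high IR cells had 1 Bpifb1 UMI beside 2521 Bpifa2 UMIs, too few to set them apart from the Klk1-low cells. In the control library the values were 75.9 (61.8 to 92.2) in acinar, 132 (119 to 147) in Etv1+, 113 (74.6 to 165) in immune cells and 109 (59.6 to 183) in low-gene barcodes. Single IR classes with few UMIs reached as high as the Klk1-low cells or overlapped with them, at 1313 in NK cells (567 to 2589, 8 UMIs), 655 in cycling cells (263 to 1350, 7 UMIs) and 599 in endothelial cells (72.5 to 2165, 2 UMIs). The pooled immune and low-gene values were close to those of the secretory cells of the same library. IR intercalated duct cells held 10.6 (1.28 to 38.1), from 2 UMIs, the lowest of these IR values.

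A gate of at least 2 UMIs each of Klk1 and Fxyd2, which uses no cluster, took 90 control and 66 IR cells from all classes. Bpifb1 had 3 UMIs in 2 of these control cells and 145 UMIs in 27 of the IR cells, of which 108 UMIs lay in the 12 gated IR cells outside the striated duct cluster. A single Etv1+ cell with 10 Klk1 UMIs held 107 of them, and 38 UMIs remained without it. Of the gated IR cells, 38 were in the Klk1-low group, and 3 of the other 28 had a Bpifb1 UMI.

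Intercalated duct cells had 2 Bpifb1 UMIs in 103 control cells and 2 in 126 IR cells, or 6.17 and 3.27 CPM. The ratio was 0.53 with an interval of 0.0384 to 7.32, and no difference was detectable. This held although Bpifa2 took 31.0% of UMIs in the IR cells.

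**Figure D5:**
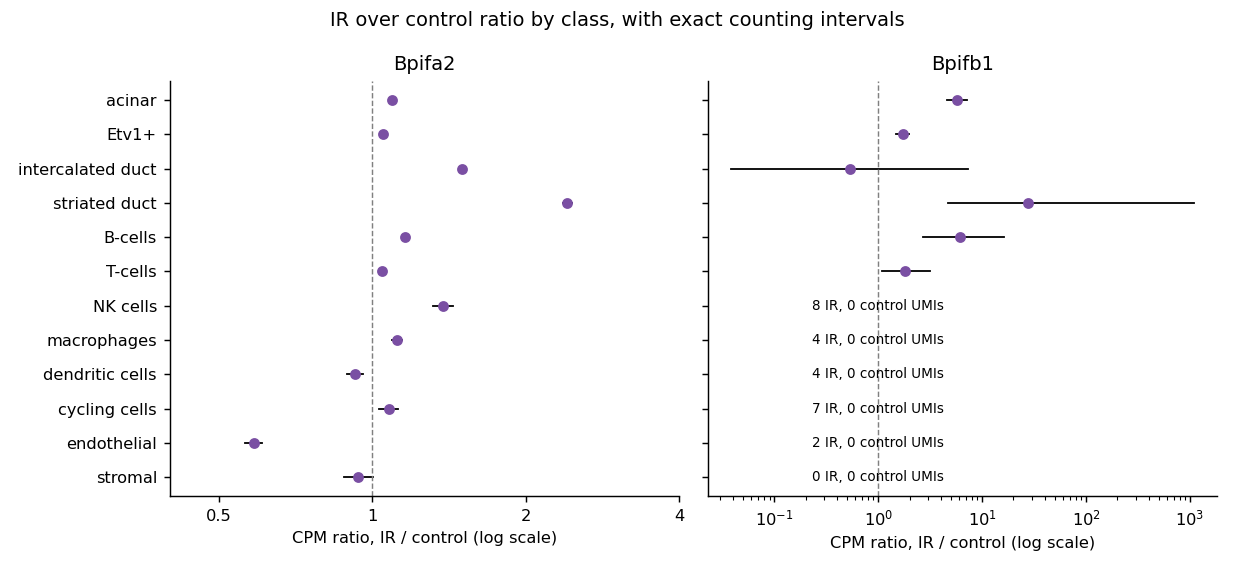
Ratio of IR to control CPM over all genes for Bpifa2 (left) and Bpifb1 (right) by class, on log axes, with 95% exact counting intervals and a dashed line at 1. Bpifa2 lies between 0.584 in endothelial cells and 2.41 in striated duct cells, and its acinar and Etv1+ ratios of 1.09 and 1.05 fall to 0.92 and 0.887 without the abundant genes. Bpifb1 is above 1 in acinar, Etv1+, striated duct, B- and T-cells, and for classes with no control UMI the counts are printed.

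Outside the epithelium Bpifb1 was low. Immune cells had 27 UMIs in 23 of 2305 control cells and 131 UMIs in 103 of 4123 IR cells. The levels were 3.72 CPM (2.45 to 5.42) and 11.5 CPM (9.63 to 13.7), a ratio of 3.09 (2.03 to 4.87). Low-gene barcodes moved alike over totals that include haemoglobin, from 8.62 CPM (14 UMIs) to 31.1 CPM (26 UMIs). Their ratio was 3.61 (1.82 to 7.49). Barcodes with over 5% mitochondrial UMIs did not move alike, with 89 control UMIs (44.2 CPM) and 111 IR UMIs (41.0 CPM). Their ratio was 0.928 (0.696 to 1.24). In B-cells 7 control UMIs stood against 39 IR UMIs, a ratio of 6.15 (2.72 to 16.3), but 17 of the latter came from 1 cell that also held 1390 Bpifa2 and 475 Amy1 UMIs. Without that cell 22 UMIs remained (10.5 CPM). In T-cells, 20 control UMIs stood against 69 IR UMIs, a ratio of 1.82 (1.09 to 3.17). Macrophages, dendritic cells, NK cells and cycling cells had no control UMI and 4, 4, 8 and 7 IR UMIs. The IR NK cells, at 45.1 CPM (19.5 to 88.8), were the highest of the immune classes, with 4 of the 8 UMIs in 1 of 76 cells. Stromal cells had none in 31 control and 18 IR cells, which allows a UMI in up to 9.68% and 16.7% of cells.

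In order of level, Bpifa2 ran from acinar to Etv1+, intercalated duct and striated duct cells in control, and from acinar to Etv1+, striated duct and intercalated duct cells in IR. The place of the ducts in IR depended on the scaling, since without the abundant genes intercalated duct cells stood above striated duct cells. Macrophages and B-cells followed in both. Stromal cells were lowest in both. Neighbours whose counting intervals did not separate were endothelial and T-cells in control, and endothelial and cycling cells in IR. For Bpifb1 the control order began with Etv1+ and acinar cells. Past the first pair, no control class differed from the next beyond counting error. The IR order began with striated duct, acinar and Etv1+ cells, and from Etv1+ cells down no class differed from the next. Striated duct stood at 1.78 times the acinar level over all genes (1.3 to 2.4) but at 0.782 times without the abundant genes (0.57 to 1.05), so the first place also turned with the scaling.

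Over the 12 named classes of the control library, the genes whose log2(CPM + 10) was most like that of Bpifa2 were Smr3a, Pip, 2310057J18Rik, Amy1 and Dnase1, with Pearson's r of 0.988 to 0.994 among 5398 genes with at least 200 UMIs. In the IR library they were Dnase1, Pip, BC037156, 2310057J18Rik and Chia1 (r 0.993 to 0.997, 6433 genes). For Bpifb1 they were Bglap2, Gjb1, Prol1, Car6 and Scgb2b27 in control (r 0.949 to 0.972) and Bglap2, Hist1h4i, Tesc, Ckmt1 and Reep5 in IR (r 0.767 to 0.848). Bglap2, an osteocalcin gene, led in both. The classes share their libraries and the background of free RNA, and the values are descriptions.

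In striated duct cells 13 of the 18 secretory genes could be measured, of which 6 were past 2-fold upwards and 1 (Smr3a, 0.422) downwards, with a median of 1.74 against 0.595 for all genes, of which 5.24% were past 2-fold upwards. The 3 largest were Dcpp3 at 15.3, Dcpp2 at 9.79 and Dcpp1 at 5.71, members of a family of secreted demilune and parotid proteins. Of the defence genes 4 could be measured there, and Klk1 (0.215) and Fxyd2 (0.176) were past 2-fold downwards, as were 41.4% of all genes of this class. The Klk1-low group supplied 53 of the 76 IR cells of this class. In the Klk1-high groups Klk1 stood at 45953 CPM in control and 43693 in IR, and Fxyd2 at 17356 and 13817. Neither was past 2-fold there, and Crisp3 went from 5697 to 22229 CPM. In intercalated duct cells 5 of 17 secretory genes were past 2-fold upwards, among them Cst10, a cystatin, at 4.54. Past 2-fold downwards were 2, Dcpp2 at 0.0393 and Dcpp3 at 0.0542. Of 306 genes there 7.52% were past 2-fold upwards and 7.84% downwards. A Dcpp2 UMI was found in 76 control cells (73.8%) and 92 IR cells (73.0%), at median depths of 1263 and 4514.5 UMIs. For Dcpp3 the shares were 56.3% and 73.0%. A second-level group of 50 control cells held 12168 of the 12798 control Dcpp2 UMIs, at a median of 4 per cell. Its 27 IR cells had a median of 5. Medians were 9 and 11 in the deep group, and 1 and 0 in the remaining group. The 2 ratios were therefore not read as a fall across the class. In Etv1+ cells 1 of 18 secretory genes was past 2-fold upwards (Odam, 3.03). Of 7 defence genes Ltf (lactoferrin) was the 1 past 2-fold downwards, at 0.00911 from 6 IR and 1051 control UMIs. Of all Etv1+ genes 0.375% were past 2-fold downwards. In B- and T-cells all 18 secretory genes could be measured. Odam was the 1 past 2-fold upwards in each, at 3.73 and 2.65, where 1.36% of B-cell and 1.71% of T-cell genes were. Dcpp2 (0.352 and 0.444) and Dcpp3 (0.485 and 0.395) were past 2-fold downwards in both, where 0.671% and 0.581% of genes were. Of the defence genes, Klk1 (0.303) and Fxyd2 (0.282) were past 2-fold downwards in B-cells, and Lyz2, a macrophage lysozyme, was at 7.77 in T-cells from 103 IR and 7 control UMIs. In NK cells 2 of 10 secretory genes, Chia1 at 2.05 and 2310057J18Rik at 2.01, were past 2-fold upwards and none downwards, against 2.85% and 2.56% of 351 genes.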

How the data were processed

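UMI counts per gene and barcode were used as deposited. Per the labels and the file headers, the authors made these counts with Cell Ranger 3.0.1 on mm10 (GRCm38). Barcodes with under 200 genes or over 5% mitochondrial UMIs were left out of the classes. Cells were integrated and clustered with Seurat 5.3.0 (R 4.3.3) on 2000 variable genes without the BPI-fold genes, with 30 components and resolution 0.4. Striated duct cells, intercalated duct cells, Etv1+ cells and the cluster of endothelial and stromal cells were each clustered again at resolution 0.8. This second step used 20 components and no integration of the libraries. Classes were named from at least 3 markers. Counts were summed per class and library. Ratios have exact conditional binomial intervals, sums exact Poisson intervals and shares exact Clopper-Pearson intervals, all 95%. A limit for a count of 0 is 3 counts. The size rule was 2-fold among genes with at least 100 UMIs, and the genes named were the BPI-fold genes, for each member the 5 genes most alike over classes, and a list each of secretory and of duct and defence genes. Other genes were named after their values were seen. Alternatives were TMM factors (edgeR 4.0.16), totals without abundant genes, free RNA subtracted, other cell filters, clusterings and size rules, and removal of the highest Scrublet scores (scanpy 1.11.5). On simulated counts for 200 changed genes, all 200 directions were recovered, and 96.9% of the intervals held the true value. This checks the calculation only, and not the spread between cells or mice. The members and lists were chosen with earlier results of these data known.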

Additional observations from a re-analysis of the deposited data

Results flagged for a closer look

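Barcodes with under 200 genes, used in no class, held both genes. Bpifa2 stood at 97934 CPM in the IR barcodes and 79003 CPM in the control barcodes. Bpifb1 stood at 31.1 CPM and 8.62 CPM. Haemoglobin, at 48.4% of the IR and 62.2% of the control UMIs, is in these totals. The Bpifa2 ratio of IR to control was below 1 in dendritic cells (0.923) and in endothelial cells (0.584) while it was above 1 in acinar cells over all genes. The endothelial value lay in 1 group of cells and was 0.877 with no mitochondrial limit. These differences were not tested, and the acinar ratio turned to 0.92 without the abundant genes.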

How the results depend on the processing

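No paired analysis was possible because each condition had 1 library, and for the same reason no replicate could be left out. The Bpifa2 ratio of IR to control changed direction without the abundant genes in acinar (0.92) and Etv1+ cells (0.887). With TMM factors it did so in acinar (0.865), Etv1+ (0.843) and T-cells (0.928). It also turned with a mitochondrial limit of 10% in B-cells (0.976) and NK cells (0.697), with no such limit in B-cells (0.994) and dendritic cells (1.34), with at least 500 genes in NK cells (0.628), and without integration in cycling cells (0.646). The stromal ratio, whose interval spans 1, went from 0.939 to 1.11 at 10% and 1.08 with no limit. The intercalated duct ratio of 1.5 fell to 1.10 with no limit, 1.12 without integration and 1.13 with the BPI-fold genes in the clustering. Subtracting free RNA moved the Bpifa2 ratio to 11.35 in striated duct cells and 13.6 in macrophages, and the striated duct Bpifb1 ratio to 106. Macrophage medians lay within the 61 to 80.5 Bpifa2 UMIs of the non-epithelial classes, so their value after subtraction was not read as a change. For B-, T-, NK, dendritic, cycling, endothelial and stromal cells subtraction gave no Bpifa2 ratio. Without the Klk1-low group, an alternative chosen after seeing the data, the striated duct ratios were 0.884 for Bpifa2 and 4.02 for Bpifb1. The acinar Bpifa2 ratio was 1.11 with no mitochondrial limit, 1.105 with at least 500 genes, 1.101 without integration and 1.099 without the highest doublet scores. The acinar Bpifb1 ratio was above 1 in all 12 alternatives, among them 4.51 with TMM factors and 4.4 without the highest cell, also chosen after seeing the data. The striated duct ratio of Bpifb1 ran from 4.02 to 106, but each value rests on 1 to 3 control UMIs and says nothing on stability. Resolution 0.3 and at least 500 genes named no striated duct class. The 47 acinar genes past 2-fold became 489 with a minimum of 20 UMIs, 213 at 1.5-fold, 10 at 3-fold and 27 without the abundant genes. The 98 striated duct genes became 427 with 20 UMIs and 62 at 3-fold. The thinned control striated duct share with Bpifb1 was 0%. Depth and cell composition both limit the duct values. Control striated duct cells had a median of 721 UMIs.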
